A study of Sus scrofa domesticus with 12 samples.

Results

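RNA-seq was used to measure the developmental transcription factor families HOX, TBX, PITX, SOX, TWIST, RUNX and KLF in injured and sham-operated skeletal muscle of the pig hindlimb. A gene was taken where its name began with one of those family names or of a few related ones, and 47 of the 11506 named genes did, among them 12 HOX, 17 KLF, 5 SOX, 5 TBX, 3 RUNX and 2 TWIST genes. The muscle was the peroneus tertius (PT), a dorsiflexor of the ankle, of young adult female Yorkshire Cross pigs. Volumetric muscle loss (VML) was made by cutting a block out of the middle of the muscle, and tissue was taken 12 weeks later. The 12 libraries came from 2 sham-operated limbs (Sham, muscle exposed with nothing removed), 2 non-repaired VML limbs (No repair), 2 VML limbs filled with a hyaluronan hydrogel (HA, here Hya-repaired) and 6 VML limbs implanted with an acellular extracellular matrix (ECM-SIS, here ECM-repaired). The 12 limbs came from 11 pigs, since pig 017 contributed both limbs, the left one non-repaired and the right one Hya-repaired. The labels name small intestinal submucosa for all 6 ECM-repaired limbs whereas the study describes a bladder matrix as well, so these were kept as 1 group and the matrices cannot be told apart here. The limbs are called by pig number where 1 limb is meant.

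HOX genes lie in clusters, and the order of the genes along a cluster follows the order of the body levels and limb segments where they act in the embryo. In adult connective tissue cells a regional HOX pattern persists, while PITX1 and TBX4 mark the hindlimb and TBX5 the forelimb. SOX6 acts in muscle fibers, TWIST and PRRX factors in mesenchyme, RUNX factors in blood and bone, and Krüppel-like factors (KLF) bind GC-rich promoters in nearly all cells.

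Levels are relative transcript abundances with the same total in each library (TPM), which are corrected for transcript length and can be compared between genes. A gene was tested where it reached 1 TPM in all limbs of at least 1 group, and 36 of the 47 members did. Of these, 24 passed in every group and 10 passed in injured groups and not in sham (HOXB9, HOXD12, HOXD13, RUNX1, RUNX1T1, RUNX2, SOX10, SOX15, TBX4 and TWIST2). HOXD10A passed in sham alone. Since those 10 and HOXD10A were kept through the groups where they were high, the counts over tested members are not counts over all members. The other 11 members were below this level. TBX5 and SOX18, an endothelial factor, were listed at 0 in all 12 limbs, SOX9 reached 2.83 TPM, KLF12 1.24, KLF8 1.16, TBX21 1.12, SOX2 0.753, KLF14 0.52, TBX19 0.482, KLF17 0.0924 and KLF1 0.0147 at most. Together the 47 members held 0.0566 and 0.0584% of named-gene TPM in the sham-operated limbs and from 0.0463 to 0.0903% in the injured limbs. By the reference annotation, 44 of the 47 names are current symbols, and which transcripts HOXA11B, HOXB9 and HOXD10A stand for was not resolved. The annotation also gave the symbols HOXA9, PRRX1 and SOX6 to 3 genes listed under LOC identifiers, which are described beside the members and not counted among them.

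The tissue differed in its makeup between groups, which bears on all comparisons with sham. The 10 measured genes of the myofiber list, among them the myosin heavy chains and ACTA1, held 16.5 and 16.6% of named-gene TPM in the sham-operated limbs and from 1.05 to 7.68% in the injured limbs. The 8 fibroblast markers held 0.151 and 0.22% in sham and from 5.01 to 12% in injured limbs, and the 6 macrophage markers 0.00322 and 0.00533% against 0.0601 to 0.15%, with none of these markers at 0 in any limb. The part of these shifts in the changes below was not tested, and in bulk tissue fewer cells of a type cannot be told apart from less RNA per cell. TPM also share a fixed sum, and over all 8782 tested genes the log2 fold change between VML-injured and sham-operated muscle had a median of 0.73. Each comparison with sham was therefore also made after rescaling by trimmed means of log ratios, which brought this median to 0.01 and is named the rescaled comparison.

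Comparing VML-injured with sham-operated muscle asks which of these factors differ in tissue sampled from the muscle after the injury. VML-injured is the mean of the 3 injured groups. Of the 36 tested members, 15 were higher and 2 lower at an adjusted p under 0.05 by limma, and 19 were not called. Over all tested genes 49.4% were higher and 7.66% lower, and the median log2 fold change of the members was 0.45. After rescaling, 8 members were higher and 12 lower, against 29% and 28% of all tested genes, and the members' median was -0.18. On both scales HOXD9, HOXD12, HOXD13, KLF16, RUNX1, RUNX2, TBX4 and TWIST2 rose, and HOXA13 fell. HOXB7, HOXD8, KLF3, KLF6, KLF7, RUNX1T1 and SOX15 were higher on the deposited scale and not past the threshold after rescaling. HOXA3, HOXA10, HOXA11B, KLF9, KLF10, KLF11, KLF13, KLF15 and PITX1 were lower after rescaling and not past the threshold as deposited. All 10 injured limbs lay above both sham-operated limbs for 14 members, or 38.9% of those tested, beside 49.8% of all tested genes, and below both for 3, or 8.33%, beside 8.52%. Among the 24 members that passed in every group, 7 were higher and 1 lower. The matching share of all genes was not computed for counts under this filter or with a limb left out. Without the sham-operated limb of pig 025, 7 members were higher and 0 lower, with the remaining sham-operated limb taken to vary like the other groups. Without the ECM-repaired limb of pig 024 there were 5 lower, and 4 when the Hya-repaired limb of pig 017 was omitted. Among the calls lost without the sham of pig 025 were HOXA13, HOXB7, KLF3, KLF6, KLF7, RUNX1T1, RUNX2, SOX15 and TBX4.

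**Figure D1:**
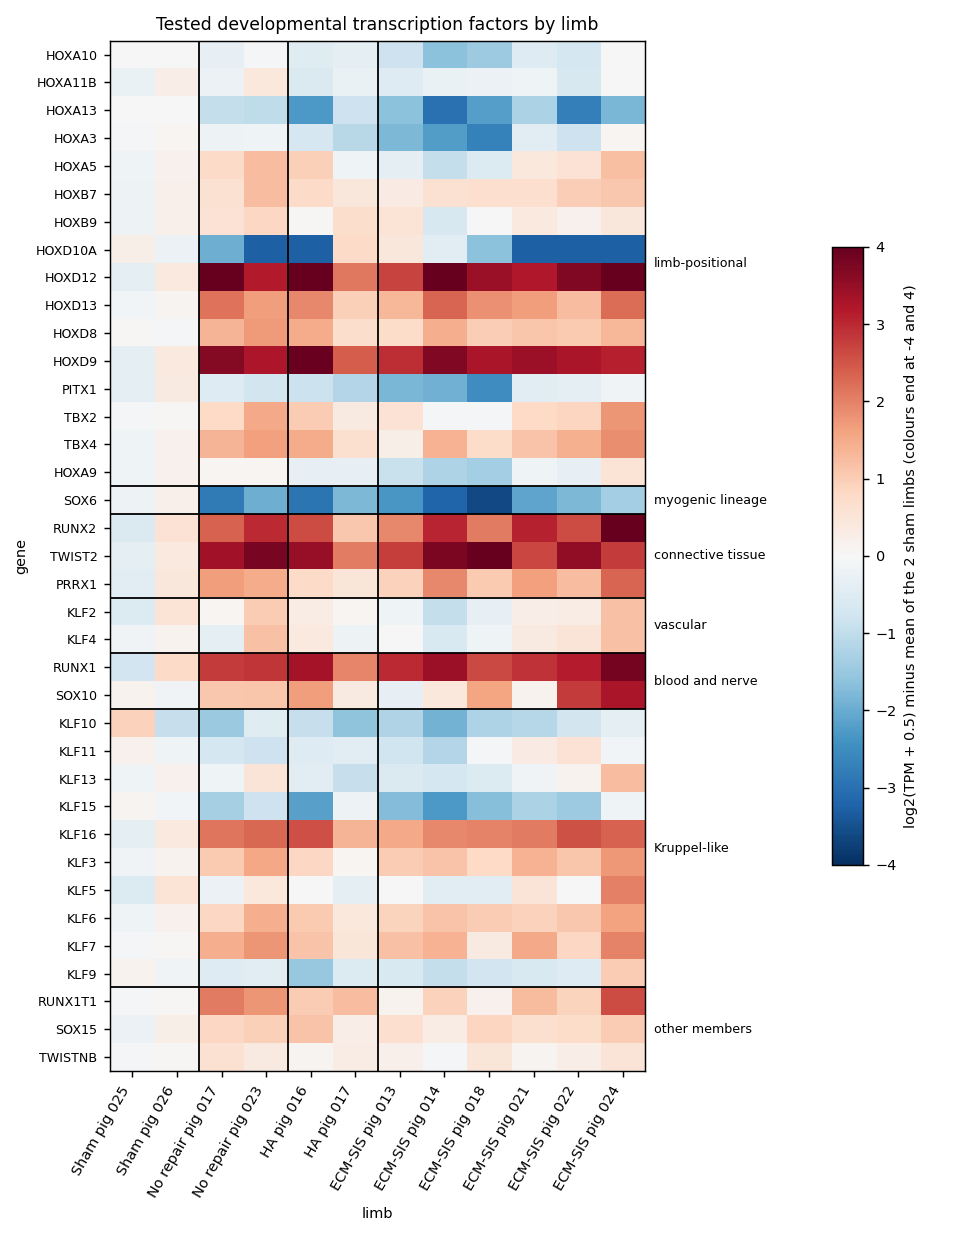
Heat map of tested members and HOXA9, PRRX1 and SOX6 (rows, by role) in the 12 limbs (columns, by group). Color gives log2(TPM + 0.5) minus the mean of the 2 sham-operated limbs and ends at 4 in both directions. HOXD9, HOXD12, TWIST2 and RUNX1 are red in all 10 injured limbs, and HOXA13 and SOX6 are blue in all 10.

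Of 5 tested HOXD members 4 were higher and 0 lower, and of 5 tested HOXA members 0 were higher and 1 lower, against 49.4% and 7.66% of all tested genes. After rescaling these counts were 3 and 0 for HOXD and 0 and 4 for HOXA, against 29% and 28%. Of the HOXD genes that were higher, HOXD12 and HOXD13 reached 1 TPM in injured groups and not in sham, and no test compared one cluster with the other. In the reference annotation HOXD13, HOXD12, HOXD9 and HOXD8 lie in this order in 1 cluster.

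HOXD12, a factor of the distal limb, was measured at 0.221 and 0.72 TPM in the sham-operated limbs, 14.7 and 8 in the non-repaired, 17.5 and 3.57 in the Hya-repaired, and 5.66 to 16 with a median of 10.8 in the ECM-repaired limbs. Every injured limb lay above both sham-operated limbs, with the Hya-repaired limb of pig 017 the lowest of the 10. The log2 fold change was 3.44 ± 0.50 (SE, adjusted p = 0.00012) as deposited and 3.00 ± 0.45 (SE, adjusted p = 0.000279) rescaled. HOXD9, which patterns the proximal limb and the lower trunk, stood at 1.77 and 3.43 TPM in the sham-operated limbs, 37.3 and 27.5 in the non-repaired, 45.8 and 15.4 in the Hya-repaired, and 22.6 to 38.7 with a median of 28 in the ECM-repaired limbs. Injured and sham-operated limbs did not overlap, and the lowest injured limb was again the Hya-repaired one of pig 017. HOXD9 rose by 3.30 ± 0.35 (SE, adjusted p = 1.22e-05) on the log2 scale and by 2.60 ± 0.35 (SE, adjusted p = 0.000151) rescaled. HOXD13, the gene at the digit end of the cluster, was low throughout, at 0.0842 and 0.166 TPM in the sham-operated limbs, 2.28 and 1.48 in the non-repaired, 1.87 and 0.699 in the Hya-repaired, and 0.981 to 2.61 with a median of 1.61 in the ECM-repaired limbs. All injured limbs were above both shams, with 1.71 ± 0.35 (SE, adjusted p = 0.00146) as the log2 fold change and 1.45 ± 0.32 (SE, adjusted p = 0.0025) rescaled, although the level passed 1 TPM in all limbs of the non-repaired group alone. HOXD8 was the most abundant HOXD gene in every limb, at 18.9 and 17.6 TPM in the sham-operated limbs, 47 and 59.7 in the non-repaired, 51.6 and 30 in the Hya-repaired, and 30.5 to 51 with a median of 39.2 in the ECM-repaired limbs. Injured and sham-operated limbs did not overlap in HOXD8. Its log2 fold change of 1.24 ± 0.25 (SE, adjusted p = 0.00107) was above the median of all genes, but the rescaled value of 0.45 ± 0.24 (SE, adjusted p = 0.119) did not pass. HOXD10A was listed at 5.19 and 3.55 TPM in the sham-operated limbs, 0.733 and 0 in the non-repaired, 0 and 7.71 in the Hya-repaired, and 0 to 6.1 with a median of 0.512 in the ECM-repaired limbs. It was at 0 in 5 of the 10 injured limbs and in none of the shams, and its log2 fold change of -1.92 ± 1.13 (SE, adjusted p = 0.166) had a 95% confidence interval from -4.41 to 0.57. Leaving out either sham-operated limb, or any other single limb, kept the deposited calls of HOXD8, HOXD9, HOXD12 and HOXD13.

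The HOXA genes were lower or not called. HOXA13, which like HOXD13 acts in the hand and foot plate, was measured at 7.49 and 7.62 TPM in the sham-operated limbs, 3.64 and 3.48 in the non-repaired, 1.14 and 4.04 in the Hya-repaired, and 0.51 to 2.82 with a median of 1.51 in the ECM-repaired limbs. All 10 injured limbs were below both shams, which differed by little from each other. HOXA13 fell by 1.55 ± 0.45 (SE, adjusted p = 0.0117) on the log2 scale and by 2.29 ± 0.46 (SE, adjusted p = 0.00161) rescaled. That call was lost without the sham of either pig, with adjusted p up to 0.0834. HOXA10, a factor of the proximal limb, was the most abundant HOX gene of the sham-operated limbs, at 49 and 48.3 TPM in the sham-operated limbs, 38.6 and 45.7 in the non-repaired, 34.9 and 36.9 in the Hya-repaired, and 15.2 to 49.1 with a median of 28.5 in the ECM-repaired limbs. It was below both shams in 9 of 10 injured limbs, with the ECM-repaired limb of pig 024 the exception. The deposited log2 fold change was -0.50 ± 0.35 (SE, adjusted p = 0.232) and the rescaled one -1.29 ± 0.25 (SE, adjusted p = 0.00135). HOXA9, listed under a LOC identifier, had 15 and 19.6 TPM in the sham-operated limbs, 17.9 and 17.9 in the non-repaired, 13.4 and 13.4 in the Hya-repaired, and 6.41 to 25.3 with a median of 11.3 in the ECM-repaired limbs. These ranges overlapped, and its log2 fold change was -0.28 ± 0.41 (SE, adjusted p = 0.57), or -1.06 ± 0.27 (SE, adjusted p = 0.00617) rescaled. HOXA11B was measured at 14.2 and 21.3 TPM in the sham-operated limbs, 14.8 and 23.3 in the non-repaired, 11.5 and 14.4 in the Hya-repaired, and 11 to 17.7 with a median of 14.5 in the ECM-repaired limbs. HOXA3, a gene of the neck and thymus primordia, stood at 12.8 and 14.4 TPM in the sham-operated limbs, 11.8 and 12 in the non-repaired, 8.33 and 5.98 in the Hya-repaired, and 1.68 to 14.4 with a median of 5.46 in the ECM-repaired limbs. HOXA5, which acts in the lung and the neck skeleton, had 8.87 and 11.4 TPM in the sham-operated limbs, 17.5 and 24.4 in the non-repaired, 19.7 and 8.78 in the Hya-repaired, and 5.01 to 24 with a median of 10.6 in the ECM-repaired limbs. Injured limbs lay below both shams in 3 of 10 for HOXA11B, in 9 for HOXA3 and in 4 for HOXA5, of which the other 6 lay above both. None of the 3 passed as deposited, with log2 fold changes of -0.21 ± 0.26 (SE, adjusted p = 0.49) for HOXA11B, -0.80 ± 0.59 (SE, adjusted p = 0.258) for HOXA3 and 0.48 ± 0.49 (SE, adjusted p = 0.412) for HOXA5. After rescaling HOXA11B at -0.99 ± 0.24 (SE, adjusted p = 0.0041) and HOXA3 at -1.58 ± 0.46 (SE, adjusted p = 0.0124) passed. The sign of the HOXA5 value turned to -0.30 ± 0.33 (SE, adjusted p = 0.472) on rescaling, and that of HOXA11B turned when the sham of pig 026 was left out.

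A ratio of 2 genes within a limb depends less on the scale of the library than the level of a single gene does. Each ratio was computed from TPM + 0.5. The added 0.5 exceeds the HOXD13 level in both shams (0.0842 and 0.166 TPM), so the sham ratios of HOXD13 over HOXA13 depend on it. The pairs HOXD9 with HOXA9 and HOXD13 with HOXA13 are paralogs at matching cluster positions, and were chosen after their values were seen, so the ratios are given as a description. The log2 ratio of HOXD9 over HOXA9 was -2.77 and -2.35 in the sham-operated limbs and ranged from -0.0031 to 2.38 with a median of 1.03 in the injured limbs. For HOXD13 over HOXA13 it was -3.77 and -3.61 in the shams and from -1.92 to 1.62 with a median of -0.15 in the injured limbs. In both pairs the HOXA gene was the more abundant in both shams, and no injured limb reached the sham values.

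HOXB7, a gene of the thoracic levels, was measured at 2.11 and 2.9 TPM in the sham-operated limbs, 4.07 and 6.45 in the non-repaired, 4.59 and 3.55 in the Hya-repaired, and 3.22 to 5.81 with a median of 4.25 in the ECM-repaired limbs. Injured and sham-operated limbs did not overlap, and the deposited log2 fold change of 0.75 ± 0.28 (SE, adjusted p = 0.0347) passed while the rescaled 0.055 ± 0.18 (SE, adjusted p = 0.813) did not. HOXB9 was low, at 0.482 and 0.774 TPM in the sham-operated limbs, 1.18 and 1.5 in the non-repaired, 0.644 and 1.32 in the Hya-repaired, and 0.218 to 1.14 with a median of 0.869 in the ECM-repaired limbs. Its injured limbs lay on both sides of the shams, with a log2 fold change of 0.41 ± 0.33 (SE, adjusted p = 0.298).

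The hindlimb factors PITX1 and TBX4 differed in direction. PITX1, which gives the hindlimb its identity, was measured at 7.11 and 12.2 TPM in the sham-operated limbs, 6.44 and 5.4 in the non-repaired, 4.98 and 3.9 in the Hya-repaired, and 1.27 to 8.34 with a median of 4.61 in the ECM-repaired limbs. In 9 of 10 injured limbs it was below both shams, and 3 ECM-repaired limbs lay at 2.29 TPM or less, but the shams themselves differed and the deposited log2 fold change was -0.94 ± 0.55 (SE, adjusted p = 0.159). After rescaling PITX1 was lower, at -1.70 ± 0.43 (SE, adjusted p = 0.00593). TBX4, which starts hindlimb outgrowth and acts in the limb's connective tissue, had 0.167 and 0.36 TPM in the sham-operated limbs, 1.45 and 1.84 in the non-repaired, 1.63 and 0.69 in the Hya-repaired, and 0.382 to 2.26 with a median of 1.34 in the ECM-repaired limbs. All injured limbs were above both shams, and TBX4 rose by 1.23 ± 0.39 (SE, adjusted p = 0.0171) on the log2 scale and by 0.88 ± 0.30 (SE, adjusted p = 0.0258) rescaled, the deposited call being lost without the sham of either pig. It passed 1 TPM in all limbs of the non-repaired group alone. TBX2, a repressor in limb and heart, was measured at 4.09 and 4.38 TPM in the sham-operated limbs, 7.74 and 13.2 in the non-repaired, 9.1 and 5.59 in the Hya-repaired, and 3.98 to 15.4 with a median of 7.15 in the ECM-repaired limbs. It was above both shams in 8 of 10 injured limbs and its log2 fold change of 0.83 ± 0.42 (SE, adjusted p = 0.105) did not pass.

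**Figure D2:**
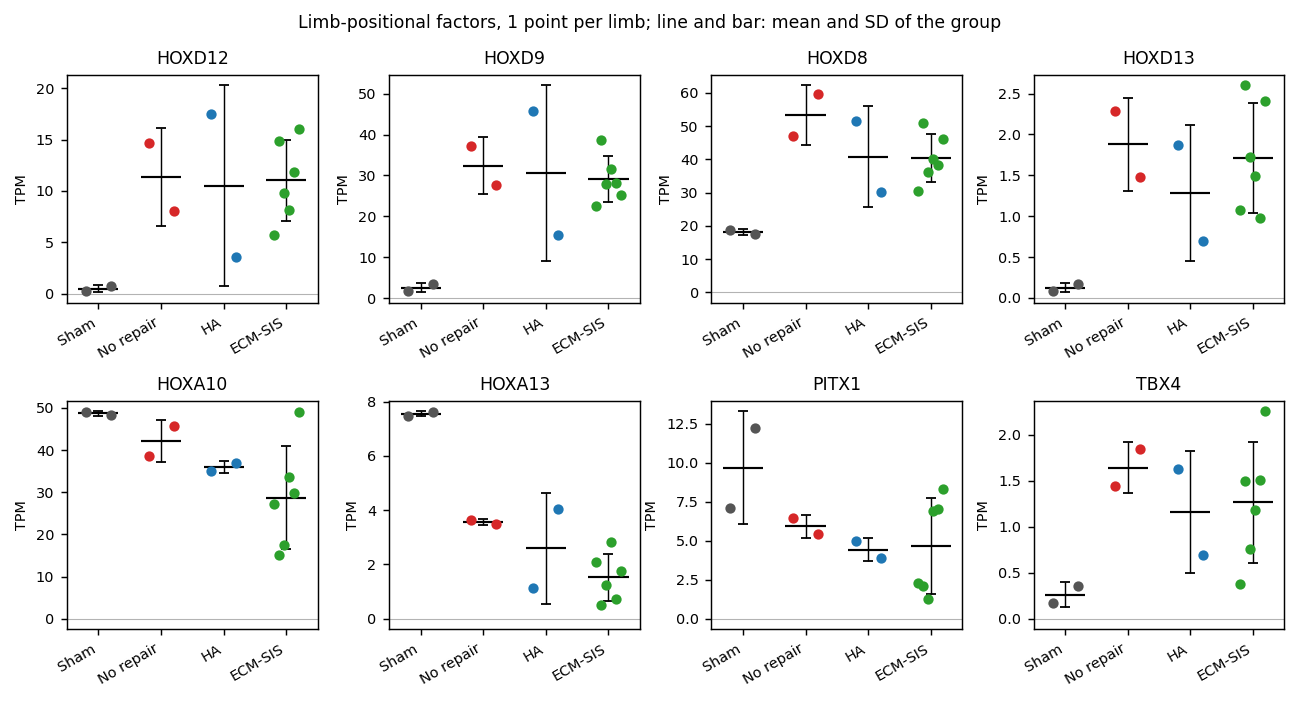
TPM of 8 limb-positional factors (vertical axes, TPM) in the Sham, No repair, HA and ECM-SIS limbs, with 1 point per limb and the group mean and SD as line and bar. For HOXD12, HOXD9, HOXD8, HOXD13 and TBX4 every injured limb lies above both sham-operated limbs, and for HOXA13 every injured limb lies below them.

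HOX proteins bind DNA together with cofactors of the PBX, MEIS and PKNOX families, of which 5 genes were measured. Of these 3 were higher and 1 was lower, against 49.4% and 7.66% of all tested genes, and after rescaling 1 was higher and 2 lower, against 29% and 28%. The median log2 fold change of the 5 was 0.87 as deposited and 0.09 rescaled, and the values of single cofactors below are as deposited. MEIS2, which marks the proximal limb bud, had 0.114 and 0.224 TPM in sham and 1.28 to 5.25 (median 3.34) in injured limbs and rose by 2.47 ± 0.37 (SE, adjusted p = 0.000146) on the log2 scale. MEIS1 had 1.27 and 1.67 TPM in sham and 2.45 to 4.59 (median 3.31) in injured limbs and a log2 fold change of 0.97 ± 0.26 (SE, adjusted p = 0.00792). PBX2, a broadly expressed cofactor, had a log2 fold change of 0.87 ± 0.34 (SE, adjusted p = 0.0449) as deposited. PKNOX2 was the cofactor that was lower, with 14.3 and 17.8 TPM in sham and 1.59 to 9.8 (median 5.52) in injured limbs and a log2 fold change of -1.40 ± 0.55 (SE, adjusted p = 0.0437).

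SOX6, a repressor of slow-fiber genes listed under a LOC identifier, had 4.79 and 6.45 TPM in the sham-operated limbs, 0.351 and 1.07 in the non-repaired, 0.303 and 1.26 in the Hya-repaired, and 0 to 1.86 with a median of 0.809 in the ECM-repaired limbs. It reached 1 TPM in all limbs of the sham group alone, so that the filter kept it where it was high. No injured limb reached the sham values, and SOX6 fell by 2.38 ± 0.53 (SE, adjusted p = 0.00236) on the log2 scale and by 3.07 ± 0.47 (SE, adjusted p = 0.00031) rescaled, the deposited call being kept with any single limb left out.

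Of 10 tested factors that act in muscle formation, 1 was higher and 5 were lower, against 49.4% and 7.66% of all tested genes, and after rescaling 1 was higher and 9 lower, against 29% and 28%. MYOD1, a determination factor of muscle, had 11.6 and 16.8 TPM in sham and 1.21 to 5.91 (median 3.91) in injured limbs and a log2 fold change of -1.88 ± 0.52 (SE, adjusted p = 0.00874). TEAD1, which binds promoters of muscle genes, had 35.4 and 39.9 TPM in sham and 2.93 to 10.3 (median 6.62) in injured limbs and a log2 fold change of -2.47 ± 0.43 (SE, adjusted p = 0.000405). TEAD4, MEF2A and MEF2C were the other factors that were lower. MSC (musculin), a repressor that competes with MYOD1, was the member of this list that rose, with 0.816 and 1.7 TPM in sham and 9.67 to 21.3 (median 17.1) in injured limbs and a log2 fold change of 3.26 ± 0.32 (SE, adjusted p = 6.75e-06). The myofiber markers moved with this group: 7 of 10 were lower and 0 higher, and their part in these values was not tested.

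The 2 tested connective tissue members, TWIST2 and RUNX2, reached 1 TPM in injured groups and not in sham, so that the filter kept them where they were high. TWIST2, a repressor of mesenchymal and dermal cells, was measured at 0.071 and 0.5 TPM in the sham-operated limbs, 7.2 and 9.97 in the non-repaired, 7.87 and 2.6 in the Hya-repaired, and 4.34 to 14.6 with a median of 6.57 in the ECM-repaired limbs. Injured and sham-operated limbs did not overlap, and the 3 highest limbs were ECM-repaired or non-repaired. TWIST2 rose by 3.21 ± 0.47 (SE, adjusted p = 0.000128) on the log2 scale and by 2.88 ± 0.52 (SE, adjusted p = 0.000836) rescaled. RUNX2, the factor that commits cells to bone, had 0.275 and 1.21 TPM in the sham-operated limbs, 5.46 and 8.53 in the non-repaired, 6.59 and 1.91 in the Hya-repaired, and 3.86 to 18.9 with a median of 7.8 in the ECM-repaired limbs. All injured limbs lay above both shams, with the Hya-repaired limb of pig 017 the lowest and the ECM-repaired limb of pig 024 the highest. Its log2 fold change was 2.44 ± 0.54 (SE, adjusted p = 0.0024) and 1.94 ± 0.43 (SE, adjusted p = 0.00277) rescaled, with an adjusted p of 0.0679 without the sham of pig 025. PRRX1, a factor of limb mesenchyme listed under a LOC identifier, was measured at 7.34 and 14 TPM in the sham-operated limbs, 33.5 and 29.4 in the non-repaired, 17.7 and 14.3 in the Hya-repaired, and 19.6 to 53.1 with a median of 28.6 in the ECM-repaired limbs. All 10 injured limbs were above both shams, by little in the Hya-repaired limbs. The deposited log2 fold change of 1.24 ± 0.35 (SE, adjusted p = 0.0104) passed and the rescaled 0.46 ± 0.27 (SE, adjusted p = 0.166) did not, and the call was lost without the sham of pig 025. SOX9, the cartilage factor, was not tested, and had 0.256 and 0.892 TPM in the sham-operated limbs, 0.705 and 0.738 in the non-repaired, 1.26 and 0.388 in the Hya-repaired, and 0.563 to 2.83 with a median of 1.03 in the ECM-repaired limbs. The 2 measured cartilage markers, ACAN and COL2A1, held 0.000126 and 0.000211% of named-gene TPM in sham and from 0.0207 to 0.0817% in injured limbs, there nearly all ACAN. COL2A1, the collagen that defines cartilage, had 0.0636 and 0.847 TPM in sham and 0 to 1.88 TPM in injured limbs, ranges that overlap.

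Of 8 other connective tissue factors, 4 were higher and 0 lower, a share near that of all tested genes (49.4% and 7.66%), and after rescaling 4 were higher and 1 lower, against 29% and 28%. SNAI2, a repressor of epithelial genes, had 2.93 and 8.71 TPM in sham and 25.1 to 144 (median 63.1) in injured limbs and rose by 3.19 ± 0.40 (SE, adjusted p = 3.75e-05) on the log2 scale. TCF21, a marker of fibroblast lineages, had 0.0261 and 0.0332 TPM in sham and 0.953 to 3.96 (median 2.36) in injured limbs and a log2 fold change of 2.41 ± 0.38 (SE, adjusted p = 0.000198). OSR2, which acts in limb connective tissue and joints, had a log2 fold change of 2.02 ± 0.47 (SE, adjusted p = 0.00324), and SNAI1 1.37 ± 0.38 (SE, adjusted p = 0.00826). All 8 fibroblast markers and all 4 tendon markers were higher as well. The tendon markers held 0.00381 and 0.0194% of named-gene TPM in the shams and from 0.227 to 0.898% in injured limbs, and the 4 bone markers 0.000302 and 0.00196% against 0.0121 to 0.0754%, in injured limbs mostly SPP1. IBSP and SP7, which define osteoblasts, were both at 0 in the 2 shams, while in injured limbs IBSP reached 0.358 TPM and was above 0 in all 10, and SP7 reached 2.12 TPM and was at 0 in 3. The part of these cells in the values of TWIST2, RUNX2 and PRRX1 was not tested.

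**Figure D3:**
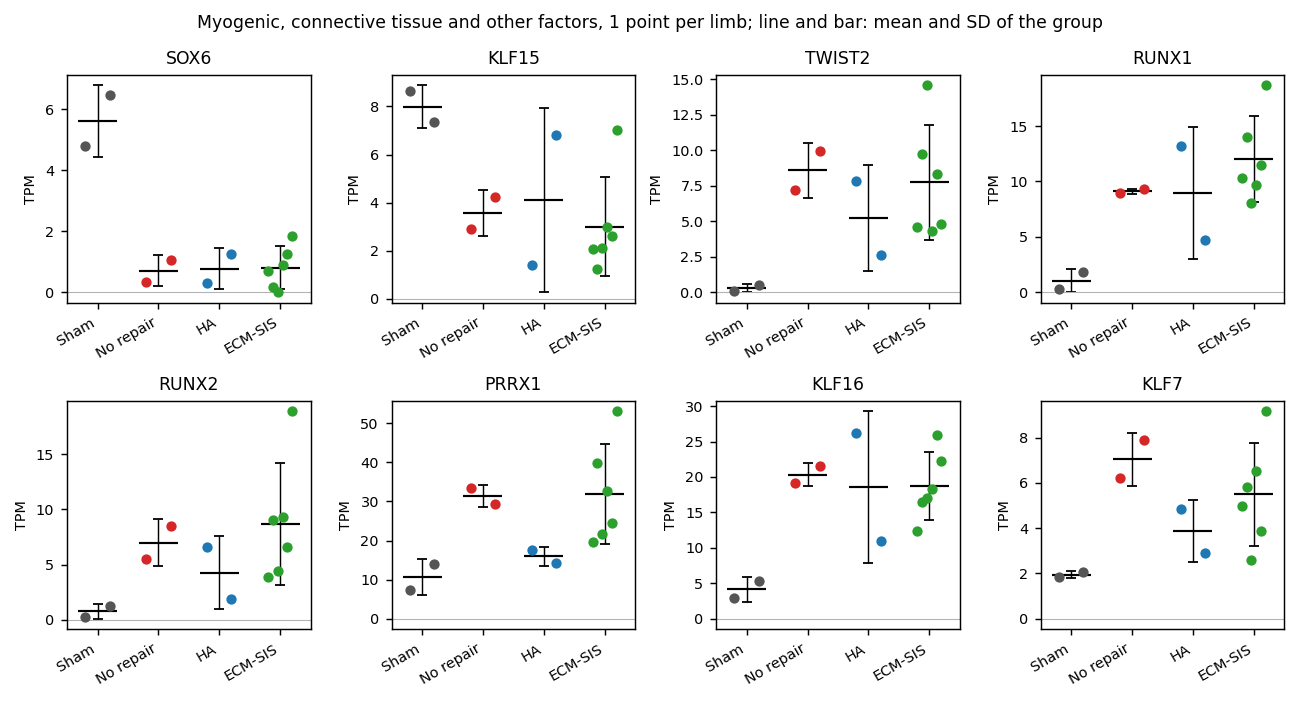
TPM of 8 myogenic, connective tissue and other factors (vertical axes, TPM) in the 4 groups, with 1 point per limb and the group mean and SD as line and bar. SOX6 and KLF15 lie below both shams in all 10 injured limbs, and TWIST2, RUNX1, RUNX2, PRRX1, KLF16 and KLF7 lie above both shams in all 10.

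RUNX1, a factor of blood stem cells that is also made in damaged or denervated muscle, was measured at 0.3 and 1.82 TPM in the sham-operated limbs, 8.95 and 9.29 in the non-repaired, 13.2 and 4.72 in the Hya-repaired, and 8.01 to 18.7 with a median of 10.9 in the ECM-repaired limbs. The shams differed from each other, yet all injured limbs lay above both. RUNX1 rose by 2.87 ± 0.43 (SE, adjusted p = 0.000148) on the log2 scale and by 2.35 ± 0.37 (SE, adjusted p = 0.0004) rescaled, and the deposited call was kept with any single limb left out. Of 3 tested partners of RUNX factors, 1 was higher and 1 lower, against 49.4% and 7.66% of all tested genes. After rescaling 0 were higher and 2 lower, against 29% and 28%. As deposited, WWTR1 (TAZ), a coactivator of the Hippo pathway, had a log2 fold change of 1.01 ± 0.35 (SE, adjusted p = 0.0252). TLE4, a corepressor, had -1.17 ± 0.39 (SE, adjusted p = 0.0225), and YAP1 -0.33 ± 0.33 (SE, adjusted p = 0.402). All 6 macrophage markers and 2 of 3 tested T and NK cell markers were higher in injured muscle as deposited. After rescaling 6 and 1 were higher, and their part in the RUNX1 value was not tested. SOX10, which defines Schwann cells, had 0.329 and 0.184 TPM in sham and 0.0947 to 6.68 (median 1.1) in injured limbs. Its values spread widely, with 9 of 10 injured limbs above both shams and a log2 fold change of 1.14 ± 0.82 (SE, adjusted p = 0.25). The 4 Schwann cell markers held 0.00241 and 0.0026% of named-gene TPM in sham and from 0.00397 to 0.0148% in injured limbs, most of it S100B, and the highest share and the highest SOX10 level were both in the ECM-repaired limb of pig 024. MBP, a myelin protein, was below both shams in 8 of 10 injured limbs, with 2.26 and 2.32 TPM in sham and 0.236 to 7.88 TPM in injured limbs.

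The vascular members KLF2 and KLF4, which endothelial cells make under flow, were not called. KLF2 had 25.3 and 53.6 TPM in sham and 18.9 to 84.6 (median 41.8) in injured limbs and a log2 fold change of 0.26 ± 0.45 (SE, adjusted p = 0.633), which turned to -0.53 ± 0.32 (SE, adjusted p = 0.18) on rescaling and to -0.27 without the sham of pig 025. KLF4 had 12.9 and 15.8 TPM in sham and 9.26 to 32.8 (median 16.3) in injured limbs and a log2 fold change of 0.24 ± 0.44 (SE, adjusted p = 0.65), or -0.54 ± 0.31 (SE, adjusted p = 0.161) rescaled. Of the 6 endothelial markers 0 were higher and 0 lower, and after rescaling 2 were lower.

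Of 10 tested Krüppel-like factors, a count that leaves out KLF2 and KLF4, 4 were higher and 0 lower, a share near or below that of all tested genes (49.4% and 7.66%), and after rescaling 1 was higher and 5 lower, against 29% and 28%. KLF16, a GC-box binding repressor, was measured at 2.91 and 5.37 TPM in the sham-operated limbs, 19.2 and 21.5 in the non-repaired, 26.1 and 11 in the Hya-repaired, and 12.4 to 25.9 with a median of 17.6 in the ECM-repaired limbs. Injured and sham-operated limbs did not overlap, and KLF16 rose by 2.08 ± 0.34 (SE, adjusted p = 0.00027) on the log2 scale and by 1.35 ± 0.25 (SE, adjusted p = 0.0009) rescaled, and the deposited call was kept with any single limb left out. KLF7, a factor of axon growth, had 1.83 and 2.04 TPM in the sham-operated limbs, 6.21 and 7.87 in the non-repaired, 4.83 and 2.9 in the Hya-repaired, and 2.61 to 9.16 with a median of 5.4 in the ECM-repaired limbs. KLF6, an early gene of injured tissue, had 17.2 and 22.4 TPM in the sham-operated limbs, 35.3 and 54.6 in the non-repaired, 41.1 and 26.4 in the Hya-repaired, and 36.8 to 60.5 with a median of 41.2 in the ECM-repaired limbs. For both, all injured limbs lay above both shams. KLF3, which recruits the CtBP corepressor, had 4.2 and 5.27 TPM in the sham-operated limbs, 10.2 and 14.6 in the non-repaired, 8.79 and 4.96 in the Hya-repaired, and 8.47 to 17 with a median of 10.9 in the ECM-repaired limbs, with 9 of 10 injured limbs above both shams. The deposited log2 fold changes were 1.21 ± 0.37 (SE, adjusted p = 0.0141) for KLF7, 0.99 ± 0.26 (SE, adjusted p = 0.00592) for KLF6 and 0.98 ± 0.29 (SE, adjusted p = 0.013) for KLF3, and the rescaled values of 0.53, 0.20 and 0.23 did not pass. The median of all tested genes was 0.73 on the deposited scale.

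The other 6 Krüppel-like factors were not called in VML-injured limbs as deposited, and 5 of them, KLF5 being the exception, were lower after rescaling. KLF15, which glucocorticoids induce in muscle and which controls its lipid and amino acid use, had 8.63 and 7.35 TPM in the sham-operated limbs, 2.89 and 4.23 in the non-repaired, 1.38 and 6.82 in the Hya-repaired, and 1.23 to 7.01 with a median of 2.36 in the ECM-repaired limbs. All 10 injured limbs were below both shams, although the Hya-repaired limb of pig 017 and the ECM-repaired limb of pig 024 nearly reached them, and the deposited log2 fold change was -1.24 ± 0.52 (SE, adjusted p = 0.0583) and the rescaled one -1.98 ± 0.47 (SE, adjusted p = 0.00417). KLF10, an early target of TGF-β, had 89.6 and 25 TPM in the 2 shams and from 12.5 to 36.1 in injured limbs, with a log2 fold change of -1.12 ± 0.46 (SE, adjusted p = 0.0533). Without the sham of pig 025 that value was -0.21 and without the sham of pig 026 it was -2.03, so the single limbs set it. KLF9, a target of glucocorticoid and thyroid hormone receptors, had 34.5 and 28.6 TPM in sham and 10.8 to 63.5 (median 20.9) in injured limbs, with 9 of 10 injured limbs below both shams and a log2 fold change of -0.64 ± 0.42 (SE, adjusted p = 0.205), or -1.43 ± 0.35 (SE, adjusted p = 0.00474) rescaled. KLF11 had a log2 fold change of -0.48 ± 0.40 (SE, adjusted p = 0.31), KLF13 -0.20 ± 0.43 (SE, adjusted p = 0.712) and KLF5, a factor of smooth muscle and epithelium, 0.052 ± 0.55 (SE, adjusted p = 0.943).

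Of the remaining members, RUNX1T1, a corepressor that matches the RUNX name and is no RUNX factor, had 0.761 and 0.819 TPM in the sham-operated limbs, 4.92 and 3.84 in the non-repaired, 2.1 and 2.51 in the Hya-repaired, and 0.936 to 7.32 with a median of 1.9 in the ECM-repaired limbs. All injured limbs were above both shams, the deposited log2 fold change was 1.34 ± 0.50 (SE, adjusted p = 0.0364) and the rescaled value 0.78 ± 0.39 (SE, adjusted p = 0.106). SOX15, a factor of myoblasts, had 0.292 and 0.597 TPM in sham and 0.616 to 1.54 (median 1.09) in injured limbs and a log2 fold change of 0.76 ± 0.29 (SE, adjusted p = 0.0394), which lost its call with 7 of the 12 limbs left out in turn. TWISTNB, a subunit of RNA polymerase I that matches the TWIST name alone, had 4.53 and 4.86 TPM in sham and 4.37 to 7.46 (median 5.84) in injured limbs and a log2 fold change of 0.31 ± 0.24 (SE, adjusted p = 0.271), turned to -0.43 ± 0.22 (SE, adjusted p = 0.116) on rescaling.

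**Figure D4:**
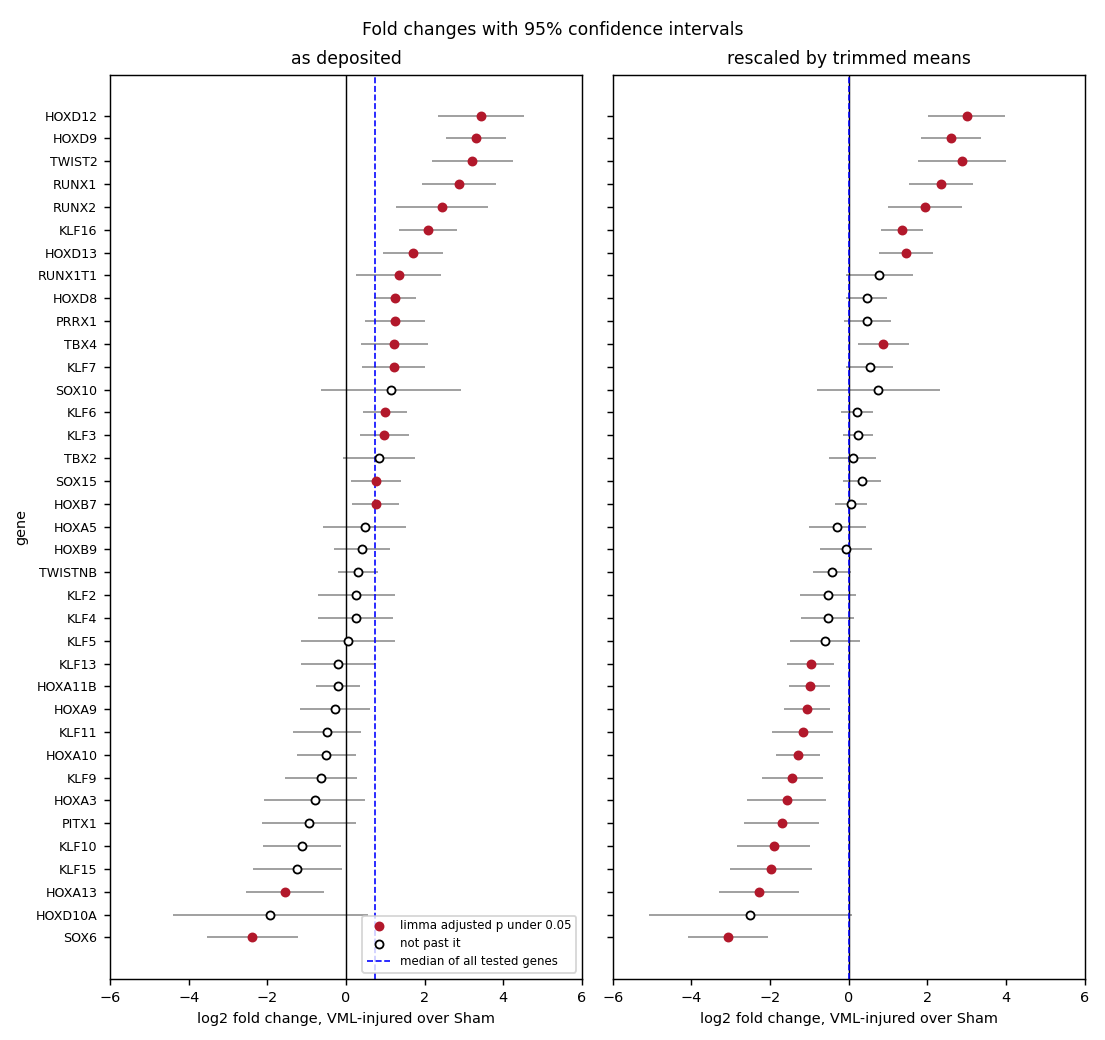
Log2 fold change of VML-injured over sham-operated muscle with 95% confidence intervals (horizontal axis) for tested members and HOXA9, PRRX1 and SOX6, as deposited (left) and rescaled by trimmed means (right). Filled points passed limma's adjusted p of 0.05, and the dashed line is the median of all tested genes, at 0.73 and 0.01. HOXD12, HOXD9, TWIST2 and RUNX1 stay to the right of both medians, and HOXA13 and SOX6 to the left.

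Each repair group was next compared with sham, with the same 2 sham-operated limbs in every comparison. In ECM-repaired limbs 13 members were higher and 3 lower, beside 48% and 10% of all tested genes. In non-repaired limbs 14 were higher and 1 lower, beside 45.1% and 1.18%. In Hya-repaired limbs 7 were higher and 2 lower, beside 33.9% and 3.76%. After rescaling the counts were 9 and 11, 8 and 10, and 7 and 10, in this order, beside 29.5% and 29.4%, 22.1% and 20.8%, and 23.4% and 19.2% of all tested genes. Without the sham of pig 025 they were 8 and 2, 7 and 0, and 4 and 0. Without the ECM-repaired limb of pig 024, 8 members were lower in ECM-repaired limbs, leaving out pig 023 left 7 higher in the non-repaired group, and leaving out pig 016 left 3 members higher and 0 lower after Hya repair. In Hya-repaired limbs the count of 2 lower went to 0 or 1 with 8 of the 12 limbs left out in turn.

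Of 5 tested HOXD genes, 4 were higher in each group. Of all tested genes 45.1% were higher in non-repaired, 33.9% in Hya-repaired and 48% in ECM-repaired limbs. HOXD12 had a log2 fold change over sham of 3.60 in non-repaired, 3.19 in Hya-repaired and 3.54 in ECM-repaired limbs. HOXD9 had 3.44 in non-repaired, 3.18 in Hya-repaired and 3.28 in ECM-repaired limbs. HOXD13 had 1.91 in non-repaired, 1.43 in Hya-repaired and 1.77 in ECM-repaired limbs. HOXD8 had 1.52 in non-repaired, 1.09 in Hya-repaired and 1.11 in ECM-repaired limbs. All of these passed the threshold, but in Hya-repaired limbs the calls of HOXD13 and HOXD8 were lost without the sham of either pig or the Hya-repaired limb of pig 016, with adjusted p by limma up to 0.267 and 0.181. HOXA13 had -0.99 in non-repaired, -1.56 in Hya-repaired and -2.11 in ECM-repaired limbs, of which the non-repaired value did not pass. The Hya-repaired value passed by little, at an adjusted p of 0.0481 by limma. That call was lost without the ECM-repaired limb of pig 013, 018 or 022, or without several other single limbs. With each limb left out in turn the Hya-repaired value ranged from -2.29 to -0.83. TWIST2 had 3.57 in non-repaired, 2.75 in Hya-repaired and 3.31 in ECM-repaired limbs, and RUNX1 2.82 in non-repaired, 2.64 in Hya-repaired and 3.15 in ECM-repaired limbs, past the threshold in all 3, although the TWIST2 call in Hya-repaired limbs was lost without the limb of pig 016 (limma, adjusted p = 0.066). For RUNX2 the values were 2.67 in non-repaired, 1.84 in Hya-repaired and 2.81 in ECM-repaired limbs, with the Hya-repaired value at an adjusted p of 0.0506. For TBX4 they were 1.5 in non-repaired, 1.07 in Hya-repaired and 1.13 in ECM-repaired limbs, and for KLF3 1.29 in non-repaired, 0.45 in Hya-repaired and 1.2 in ECM-repaired limbs, and in both the Hya-repaired value did not pass. KLF15 had -1.08 in non-repaired, -1.19 in Hya-repaired and -1.44 in ECM-repaired limbs, and its ECM-repaired value alone passed, at an adjusted p of 0.0354. That call was lost without the sham of either pig or the ECM-repaired limb of pig 013, 014, 018 or 022, with an adjusted p by limma up to 0.18. A value past the threshold in 1 group and not in another does not show a difference between them, which was tested directly.

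No member was called between injured groups. ECM-repaired against non-repaired, Hya-repaired against non-repaired, ECM-repaired against Hya-repaired, and ECM-repaired against non-repaired and Hya-repaired limbs averaged each gave 0 of 36 members, beside 0% of all tested genes, by limma at an adjusted p of 0.05. The smallest adjusted p of any member was 0.904, 0.912, 1 and 1 after rounding. At an unadjusted p under 0.05 there was 1 member of 36 in each, HOXA13 in the first and the last and KLF3 in the others. Of all 8782 tested genes 71, 196, 206 and 114 had such a p by limma, in this order. The log2 value of HOXA13 for ECM-repaired over non-repaired limbs was -1.12, with an unadjusted p of 0.0329 and an adjusted p of 0.904 by limma. The median width of the 95% confidence interval on either side of a member's value was 0.95, 1.16, 0.95 and 0.75, which limits how small a difference could be called.

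The members also varied among the 10 injured limbs, which differed in their share of myofiber transcripts. The myofiber share was lowest in the ECM-repaired limb of pig 014 and the Hya-repaired limb of pig 016, at 1.05 and 1.15%, and highest in the Hya-repaired limb of pig 017, at 7.68%. Pearson's r of each member with the log2 of this share was computed over the 10 limbs for 39 genes, with 100000 permutations and adjustment over the 39. The sham-operated limbs form a cluster of their own and were left out. The points share the total that TPM impose, and pig 017 gave 2 of them.

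Of the 39 genes, 2 passed an adjusted p of 0.05, HOXB9 among them. Each r was also computed without the 2 limbs farthest from the median share, those of pigs 014 and 016. HOXB9 had r = 0.91 (permutation p = 9e-05, adjusted p = 0.00351) and Spearman's rho = 0.94 (adjusted p = 0.00624), with r = 0.90 without those 2 limbs, at levels of at most 1.5 TPM. The genes next in order of p after these 2 did not pass. KLF15 had r = 0.83 (permutation p = 0.00389, adjusted p = 0.0506) and Spearman's rho = 0.75 (adjusted p = 0.141), with r = 0.67 without those 2 limbs. HOXA13 had r = 0.80 (permutation p = 0.00635, adjusted p = 0.0512) and Spearman's rho = 0.83 (adjusted p = 0.0555), with r = 0.69 without those 2 limbs. HOXD9 had r = -0.77 (permutation p = 0.00656, adjusted p = 0.0512) and Spearman's rho = -0.83 (adjusted p = 0.0555), with r = -0.57 without those 2 limbs. After rescaling, 5 passed, among them those with r = 0.87 for HOXB9, 0.84 for KLF15, -0.86 for HOXD9 and -0.86 for HOXD12, each at an adjusted permutation p of 0.0159. HOXD12 had r = -0.67 as deposited (adjusted permutation p = 0.174). TWIST2 had r = -0.66, not past the threshold.

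HOXA13, which was lower in injured than in sham-operated limbs, had an r above 0, and HOXD9 and HOXD12, which were higher, had an r below 0. None of these passed as deposited. Of the other members called higher as deposited, RUNX1T1 (0.37), KLF7 (0.15) and HOXB7 (0.044) had an r above 0. The rest had an r from -0.66 (TWIST2) to -0.014 (KLF3), and none of them passed. HOXB9 had 0.482 and 0.774 TPM in sham and 0.218 to 1.5 (median 1) in injured limbs, with 6 of 10 injured limbs above both shams, which had the highest myofiber share. The number of myofibers and other properties of a limb that go with it cannot be told apart here.

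**Figure D5:**
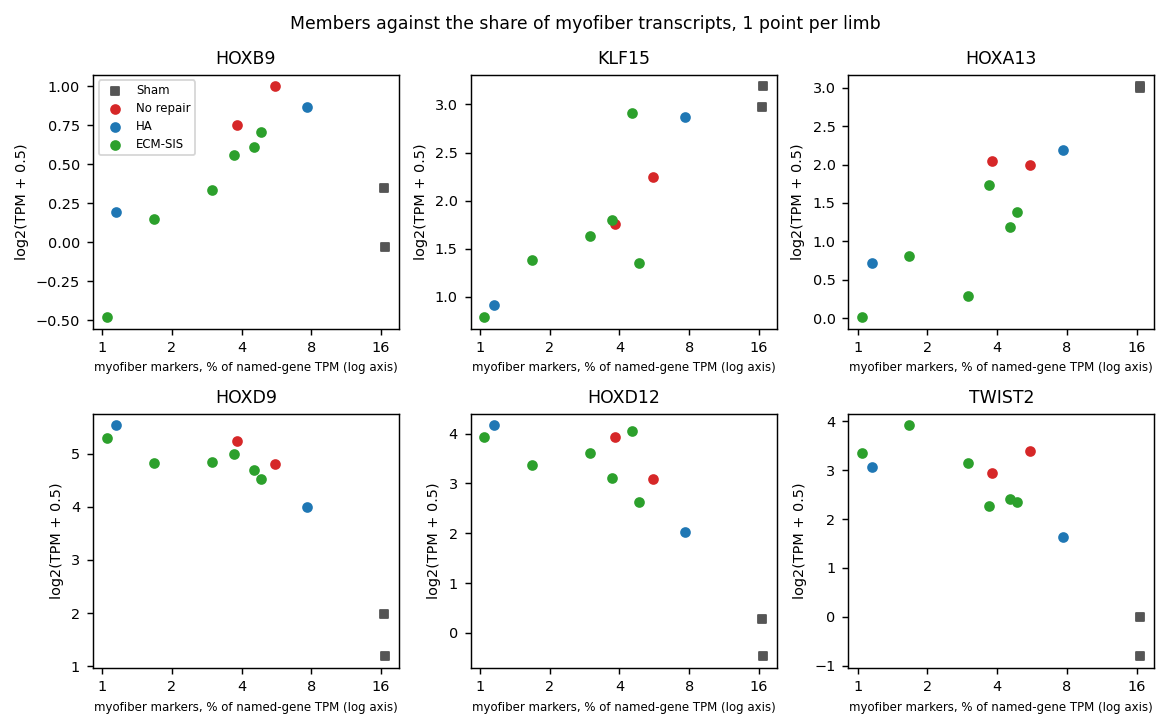
Log2(TPM + 0.5) of 6 members (vertical axes) against the share of named-gene TPM held by 10 myofiber markers (horizontal axis, percent, log scale), with 1 point per limb. Over the 10 injured limbs (circles) HOXB9, KLF15 and HOXA13 have an r above 0 and HOXD9, HOXD12 and TWIST2 an r below 0, and the 2 sham-operated limbs (squares) lie apart at the right.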

How the data were processed

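Total RNA was sequenced from tissue samples of the PT muscle of 12 limbs. Where these samples lay relative to the defect is not stated. Reads were pseudoaligned by the authors with kallisto at default settings, and the deposited values are their TPM for 11506 named genes, which held 71.5 to 82.7% of a library's full TPM. The genome build is named in the study's methods alone, and no coordinates were used. Read counts were not used, so the depth of each library is unknown here, and precision is set by how few limbs each group has.

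The 8782 genes that reached 1 TPM throughout 1 or more groups were fitted as log2(TPM + 0.5) with limma 3.58.1 in R 4.3.3 (a coefficient per group, eBayes with trend and robust estimation), all 12 libraries together, so that groups of 2 share 1 estimate of the spread. Fold changes are on this log2(TPM + 0.5) scale, which understates those of low genes. Benjamini-Hochberg adjustment ran over all tested genes in each comparison, with 0.05 as the threshold. VML-injured is the equally weighted mean of the 3 injured groups. Rescaled values are TPM multiplied by library factors from trimmed means of log ratios (30% of ratios and 5% of abundance trimmed). Correlations used Python 3.11.15 and scipy 1.17.1 with 100000 two-sided permutations. Nothing in the labels names a batch, and replicates are separate pigs within each group.

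The alternatives were trimmed-mean and median-of-ratios rescaling, pseudocounts of 0.1 and 1, no filter and a filter at 5 TPM, limma with plain eBayes, only the compared groups, each limb left out, both limbs of pig 017 left out, a 2-fold threshold and, added after seeing the data, only members at 1 TPM or more in every group. On simulated data the fit for VML-injured against sham recovered 7.5% of genes changed by a log2 value of 1 and 76% of those changed by 2, and for ECM-repaired against the other injured limbs 36.5% and 92%. Far fewer genes were changed in the simulation than the 5008 of 8782 called between VML-injured and sham, so its adjustment was stricter. For ECM-repaired against the other injured limbs, 0 genes were called in these data. The simulation held changed genes, so its adjustment there was less strict. The simulated shares of both comparisons therefore do not give the share recovered in these data. The members and all gene lists were chosen with earlier results of these data known. Every member could be named, though a few members and listed genes are not reported here, and values per limb are given for tested limb-positional, myogenic and connective tissue members and for up to 4 called members with the largest change in each other list, and of the cofactor and partner lists the first 4 genes and the 3 with the smallest p. Gene symbols for LOC identifiers and the order of HOX genes come from the RefSeq annotation of assembly Sscrofa11.1, of which no coordinates are given because the builds differ.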

Additional observations from a re-analysis of the deposited data

Results flagged for a closer look

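In 39 checks of the 6 ECM-repaired limbs, 1 for each tested gene, 2 found a limb far from the others, or 5.13%, and chance gives about 1 in 20. Both were the limb of pig 024. KLF9 stood at 63.5 TPM there, against 15.9 to 21.8 in the other 5, a gap of 0.775 of the whole range. KLF6 stood at 60.5 TPM, against 36.8 to 43.5, a gap of 0.663 of the range. The trimmed-mean factor of that library was also the lowest of the 12, at 0.62. The other groups have 2 limbs each and were not checked. In no gene did all limbs of 1 injured group move one way and all limbs of another the opposite way.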

How the results depend on the processing

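With 2 limbs in each of 3 groups and TPM without depth, small changes cannot be seen. Against sham, rescaling by trimmed means or by median of ratios gave 8 and 8 members higher and 12 and 12 lower in VML-injured, 11 and 11 lower in ECM-repaired, 8 and 8 higher and 10 and 10 lower in non-repaired, and 10 and 10 lower in Hya-repaired limbs. Only the compared groups gave 5 lower in non-repaired and 0 in Hya-repaired limbs. Hya-repaired limbs had 1 lower with a pseudocount of 0.1, no filter or the stricter filter. Without both limbs of pig 017, 4 were lower in VML-injured and 0 in non-repaired limbs. Members at 1 TPM in every group gave 7 higher and 1 lower in VML-injured, 7 higher in ECM-repaired, 7 higher in non-repaired, and 3 higher and 1 lower in Hya-repaired limbs. Rescaling gave 5 genes related to muscle share.

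Leaving out each limb in turn gave 7 to 15 higher and 0 to 5 lower in VML-injured, 8 to 14 and 2 to 8 in ECM-repaired, 7 to 16 and 0 to 1 in non-repaired, and 3 to 10 and 0 to 3 in Hya-repaired limbs, and 0 members between injured groups. Leaving out each limb of pig 017 gave 2 to 3 genes related to muscle share.

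Values that turned, none of them called, were under trimmed means and median of ratios HOXA5 (-0.30, -0.31), HOXB9 (-0.072, -0.080), KLF2 (-0.53, -0.54), KLF4 (-0.54, -0.55), KLF5 (-0.61, -0.62), TWISTNB (-0.43, -0.44), KLF3 in Hya-repaired limbs (-0.13, -0.15) and, by median of ratios, PRRX1 in Hya-repaired limbs (-0.00978), and r of HOXB7 (-0.23). With single limbs left out the log2 values ranged from -0.49 to 0.070 for HOXA11B, from -0.27 to 0.80 for KLF2, from -0.011 to 0.50 for KLF4 and from -0.51 to 0.61 for KLF5. Without each limb of pig 017, r with muscle share ranged from -0.16 to 0.16 for HOXD10A, -0.012 to 0.60 for KLF3, -0.14 to 0.22 for KLF6, -0.10 to 0.24 for PRRX1, -0.21 to 0.14 for RUNX2, -0.11 to 0.0038 for SOX10 and -0.14 to 0.21 for SOX15. The cause was not tested. Pseudocounts, filters and moderation changed no call in VML-injured against sham among the 39 genes, of which 28 passed the stricter filter. Fitting only the compared groups could change nothing there, since that comparison uses every group. No paired analysis was possible because the replicate numbers follow accession order and the groups share only pig 017.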
